A study of Mus musculus with 8 samples.

Results

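Gja1, S100b and Aldh1l1 are genes used to mark astrocytes, and they are described here by level, share of cells and co-expression in cultured mouse hippocampal neural progenitors. They were taken by gene symbol, and each was found once, so that 3 of the 9140 genes analysed are members. RNA of single cells was captured in droplets and sequenced from its 3′ end, and a unique molecular identifier (UMI) stands for 1 captured molecule. There were 30408 cells in 8 libraries, with 1 library for each of 2 genotypes on days 0, 2, 4 and 8. The libraries labelled Kmt2d+/βgeo carry the gene-trap allele Mll2Gt(RRt024)Byg of Kmt2d, a histone methyltransferase gene, and those labelled wild type carry the wildtype allele with C57BL/6J given as strain. All cells came from the microdissected dentate gyrus of littermate embryos, from C57BL/6J females mated to Kmt2d+/βgeo males. The labels give embryonic day 18, and the study's methods give another day. All cultures were expanded with the growth factors EGF and FGF2. Day 0 cells were collected in that state, and the others 2, 4 or 8 days after both factors were withdrawn. A culture, an embryo and a genotype cannot be told apart with 1 library per group. No test was therefore run, and every interval below is a 95% interval that covers counting error only.

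Astrocytes are the glial cells that clear glutamate and potassium from around synapses and pass metabolites through a coupled network. Gja1 encodes connexin 43, the main gap junction protein of that network. S100b encodes a small calcium-binding protein that is secreted by astrocytes and is also made by part of the oligodendrocyte lineage. Aldh1l1 encodes the cytosolic 10-formyltetrahydrofolate dehydrogenase, an enzyme of folate one-carbon metabolism, and is widely used as an astrocyte and neural stem cell marker. Withdrawal of growth factors lets cultured neural progenitors leave the cell cycle and differentiate into neurons and glia.

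Gja1 (ENSMUSG00000050953) lies on chromosome 10 from 56377330 to 56402513, S100b (ENSMUSG00000033208) on chromosome 10 from 76253853 to 76261159 and Aldh1l1 (ENSMUSG00000030088) on chromosome 6 from 90486427 to 90600203, all on the plus strand of GRCm38. The end of S100b overlaps Dip2a on the other strand, with 0 shared exonic bases. Aldh1l1 overlaps the lincRNA Gm45901 by 105 exonic bases on its own strand and the antisense gene Gm15756 by 499, and neither of these is among the genes analysed. The sources used here do not say whether the counting used strand, so reads of the Aldh1l1 antisense partner cannot be told apart from its own. The 250 bases before the RefSeq start site of each gene (GRCm38.p6) are printed to set the genes' start regions side by side, since their levels took 3 different courses. Capitals mark 3 motifs, each searched on both strands. The NFI half-site was searched as TTGGC and can overlap the CCAAT box, which was searched as its name spells it. The AP-1 site was searched as TGANTCA.
Gja1, chr10:56377050-56377299, plus strand: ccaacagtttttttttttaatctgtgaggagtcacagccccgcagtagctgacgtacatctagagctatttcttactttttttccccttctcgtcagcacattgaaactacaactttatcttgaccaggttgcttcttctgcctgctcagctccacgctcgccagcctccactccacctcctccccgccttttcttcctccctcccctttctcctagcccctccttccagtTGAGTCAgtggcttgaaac
S100b, chr10:76253586-76253835, plus strand: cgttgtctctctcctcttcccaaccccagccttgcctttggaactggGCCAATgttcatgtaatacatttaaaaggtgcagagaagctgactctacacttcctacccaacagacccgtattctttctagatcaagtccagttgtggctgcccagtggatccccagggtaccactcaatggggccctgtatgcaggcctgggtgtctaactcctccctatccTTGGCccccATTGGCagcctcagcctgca
Aldh1l1, chr6:90550543-90550792, plus strand: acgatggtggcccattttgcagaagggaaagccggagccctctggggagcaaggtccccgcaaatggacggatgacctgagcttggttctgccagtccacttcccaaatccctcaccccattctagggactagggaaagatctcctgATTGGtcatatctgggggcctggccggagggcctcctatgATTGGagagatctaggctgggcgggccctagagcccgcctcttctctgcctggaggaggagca
The Gja1 window held 1 AP-1 site, whose first base was 19 bases before the start site, and 6.75% of 32851 RefSeq windows of that length held any. The S100b window held 3 NFI half-sites, at 203, 29 and 19 bases, and as many were in 2.68% of windows. It held 2 CCAAT boxes, at 202 and 20 bases, which overlap half-sites. The Aldh1l1 window held 2 CCAAT boxes, at 103 and 63 bases, and as many were in 10.1% of windows. It also held a GC box (GGGCGG, not in capitals) at 45 bases, a motif in 32.7% of windows. The SOX core ACAAT and the STAT site TTCNNNGAA were not in any of the 3 windows. The Aldh1l1 start site of RefSeq, at 90550793, lies inside the gene as the deposited coordinates give it. The motifs were chosen with the sequences in view, and a match is a description of letters, not of a bound factor.

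Some libraries call for care. Median UMIs per cell on the analysed genes were between 6989 and 11230 in 7 libraries and 3972 in the day 8 library labelled Kmt2d+/βgeo. Values at day 8 are therefore also given after thinning, in which each cell is drawn at random to 3000 UMIs. Thinning left out 765 of the 2965 cells of that library, 23 cells of the day 0 library labelled Kmt2d+/βgeo, 4 of the day 8 library labelled wild type and 0 of the others. The day 4 libraries were nearly alike, since 0 of 7668 genes differed between them by a log2 ratio of at least 1. Both labels are therefore taken with care, and whether either is wrong was not tested. Pairs of libraries shared between 0 and 10 cell barcodes. Of markers of the labelled cell type, Vim, an intermediate filament gene of progenitors and astrocytes, had a UMI in 99.8% of thinned cells in both day 0 libraries. Fabp7, a radial glial fatty acid carrier, was found in 99.4% of both. Pax6, a progenitor transcription factor, was found in 6.45% and 6.90% of day 0 cells (Kmt2d+/βgeo, then wild type). Olig2, a transcription factor of the oligodendrocyte lineage, was found in 72.1% and 85.5%. Top2a, a topoisomerase of dividing cells, was found in 37.5% and 34.5% of cells on day 0 and in 1.23% to 2.25% afterwards.

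The level of a gene is given as UMIs per 10000 UMIs on the analysed genes, pooled over the cells of a library. In the libraries labelled Kmt2d+/βgeo the level of Gja1 was 0.184 on day 0, 0.407 on day 2, 2.73 on day 4 and 2.54 on day 8. In those labelled wild type it was 0.198, 0.961, 2.62 and 3.89. The day 0 libraries were lowest in both genotypes, and the day 8 library labelled wild type was the highest of the 8. In the order of the levels, the neighbours whose ratio had an interval that reached 0 on the log2 scale were the day 0 pair and the day 8 Kmt2d+/βgeo and day 4 wild type libraries.

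Day 8 over day 0, Gja1 was 13.8-fold higher in the libraries labelled Kmt2d+/βgeo (log2 ratio 3.79, 3.68 to 3.90) and 19.7-fold higher in those labelled wild type (4.30, 4.21 to 4.40). Higher ratios were found in 1.02% and 0.841% of genes, respectively. The timing differed between the labels. By day 2, Gja1 stood at 2.22-fold its day 0 level in Kmt2d+/βgeo (log2 ratio 1.15, 1.03 to 1.27) and at 4.86-fold in wild type (2.28, 2.18 to 2.39). From day 2 to day 4 the ratio was 2.75 (2.67 to 2.83) in Kmt2d+/βgeo, which was exceeded by 0.102% of genes, and 1.45 (1.39 to 1.51) in wild type. The day 4 over day 2 ratios rest on the day 4 libraries, and the day 2 over day 0 ratios do not. Without day 4, Gja1 was 6.25-fold higher on day 8 than on day 2 in Kmt2d+/βgeo (2.64, 2.56 to 2.73) and 4.05-fold higher in wild type (2.02, 1.96 to 2.08).

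The level of S100b was 0.843, 1.07, 1.38 and 1.07 on days 0, 2, 4 and 8 in the libraries labelled Kmt2d+/βgeo. In those labelled wild type it was 0.600, 2.00, 1.71 and 1.95. The wild type series thus held a low day 0 value and 3 higher ones, whereas in Kmt2d+/βgeo day 4 was the highest, at a log2 ratio of 0.71 (0.65 to 0.78) over day 0. Day 8 over day 0, the log2 ratio was 0.35 (0.25 to 0.44) in Kmt2d+/βgeo and 1.70 (1.63 to 1.76) in wild type. The wild type step was complete by day 2, at 3.34-fold the day 0 level (1.74, 1.68 to 1.80), and day 8 over day 2 was -0.04 (-0.10 to 0.01). In Kmt2d+/βgeo, days 2 and 8 differed by a log2 ratio of 0.00 (-0.09 to 0.09). The Kmt2d+/βgeo value for day 8 over day 0 changed with the measure: it was 0.17 on thinned counts and, with the sign turned, -0.052 as a difference of the mean deposited log2 values.

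The level of Aldh1l1 was 0.730, 1.48, 1.72 and 0.613 on days 0, 2, 4 and 8 in the libraries labelled Kmt2d+/βgeo. In those labelled wild type it was 0.931, 2.44, 1.81 and 1.15. Days 2 and 4 were high and days 0 and 8 low in both series, a course that differs from that of Gja1 on the last day. Every neighbour in the order of the 8 Aldh1l1 levels was apart from the next by an interval above 0. Day 2 over day 0 was 2.02-fold in Kmt2d+/βgeo (log2 ratio 1.01, 0.96 to 1.07) and 2.62-fold in wild type (1.39, 1.34 to 1.44). Day 8 over day 2 was -1.27 (-1.38 to -1.15) in Kmt2d+/βgeo and -1.08 (-1.15 to -1.02) in wild type. Day 8 over day 0 was -0.25 (-0.37 to -0.14) in Kmt2d+/βgeo and 0.31 (0.24 to 0.37) in wild type, so that the last day lay below the start in one series and above it in the other.

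**Figure D1:**
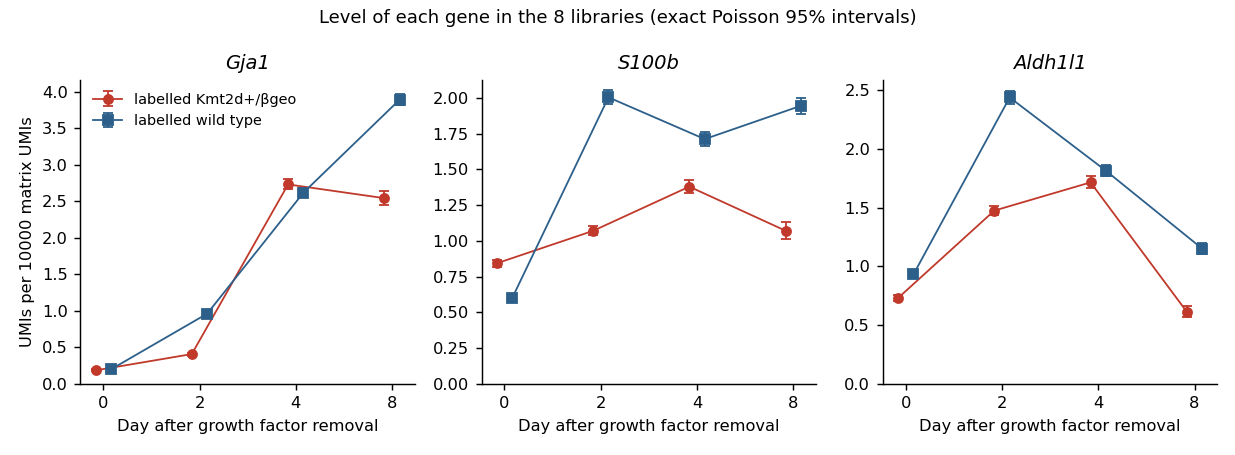
Level of Gja1, S100b and Aldh1l1 (UMIs per 10000 UMIs on the analysed genes, linear axis from 0) by day in the libraries labelled Kmt2d+/βgeo (circles) and wild type (squares), each point 1 library with its exact Poisson interval. Gja1 is highest on days 4 and 8, S100b has a low day 0 value in wild type, and Aldh1l1 is high on days 2 and 4 and lower on day 8 in both series.

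Counted by a log2 ratio of at least 1 among genes with a level of at least 0.1 in either library, 2 of the 3 members were higher on day 2 than day 0 in Kmt2d+/βgeo (Gja1 and Aldh1l1), where 11.9% of all genes were, and 3 of 3 in wild type, where 9.25% were. On day 4 over day 0, 2 of 3 were higher in Kmt2d+/βgeo (the same genes, background 16%) and 2 of 3 in wild type (Gja1 and S100b, background 12.6%). On day 8 over day 0, Gja1 was the 1 member higher in Kmt2d+/βgeo (background 19.6%), and Gja1 and S100b were higher in wild type (background 16.8%). On day 4 over day 2, Gja1 alone was higher in both genotypes, where 5.29% of genes were in Kmt2d+/βgeo and 2.95% in wild type. On day 8 over day 4, Aldh1l1 was lower in Kmt2d+/βgeo at -1.49 (-1.60 to -1.37), where 7.56% of genes were that much lower. In wild type it was at -0.66 (-0.72 to -0.59), and 0 of 3 members were counted, with a background of 1.54%.

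The share of cells with a UMI depends on depth, so it is given after thinning to 3000 UMIs. For Gja1 it was 5.57%, 10.5%, 39.7% and 48.6% on days 0, 2, 4 and 8 in Kmt2d+/βgeo, and 5.31%, 19.2%, 40.1% and 56.3% in wild type. For S100b it was 19.8%, 22.4%, 26.0% and 20.8% in Kmt2d+/βgeo, and 15.2%, 34.4%, 31.3% and 33.5% in wild type. For Aldh1l1 it was 17.3%, 26.9%, 33.0% and 15.0% in Kmt2d+/βgeo, and 20.7%, 41.7%, 32.6% and 26.1% in wild type. The widest range is that of Gja1. In Kmt2d+/βgeo its share was higher on day 8 than on day 4, whereas its level was lower, at a log2 ratio of -0.10 that was 0.095 as a difference of mean log2 values and 0.093 with total UMIs as denominator.

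UMIs per detecting cell were also counted. The mean over thinned cells with a Gja1 UMI was 1.02 and 1.07 UMIs on day 0 (Kmt2d+/βgeo, then wild type) and 1.13 and 1.36 on day 2. It was 1.99 and 1.88 on day 4, and 1.53 and 2.08 on day 8. Cells with 2 or more Gja1 UMIs made up 0.139% and 0.309% on day 0, 20.3% and 20.1% on day 4 and 17.9% and 32.5% on day 8, with at most 13 UMIs in a thinned cell. Gja1 was therefore found in more cells and with more molecules per detecting cell on days 2, 4 and 8 than on day 0. Both measures tend to rise with the mean level, so they are not separate results. Whether the cells that express Gja1 held more of it was not tested. From day 4 to day 8 the molecules per detecting cell were fewer in Kmt2d+/βgeo and more in wild type. For S100b the mean per detecting cell lay between 1.31 and 1.68 over the 8 libraries, and for Aldh1l1 between 1.20 and 1.64.

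Median depth differed most between the labels on day 8. Without thinning, S100b had a UMI in 24.8% of Kmt2d+/βgeo cells and 50.9% of wild type cells, a gap of 26.1 points (23.8 to 28.4). After thinning the gap was 12.7 points (10.3 to 15.0). The Aldh1l1 gap was 27.1 points (24.9 to 29.3) without thinning, at 18.0% and 45.1%, and 11.1 points (8.97 to 13.2) with it. The Gja1 gap was 10.4 points (7.99 to 12.8) without thinning, at 57.9% and 68.3%, and 7.69 points (4.98 to 10.4) with it. So the unthinned gap was more than 2 times the thinned one for S100b and Aldh1l1, while all 3 genes were found in fewer Kmt2d+/βgeo than wild type cells at equal depth. The thinned gaps leave out 765 of 2965 Kmt2d+/βgeo cells and 4 of 3212 wild type cells, so they differ in cells as well as depth. Thinning to 2000 UMIs, which left out 251 cells of the shallowest library and 0 of the others, gave gaps of 7.66, 10.8 and 8.05 points for Gja1, S100b and Aldh1l1.

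**Figure D2:**
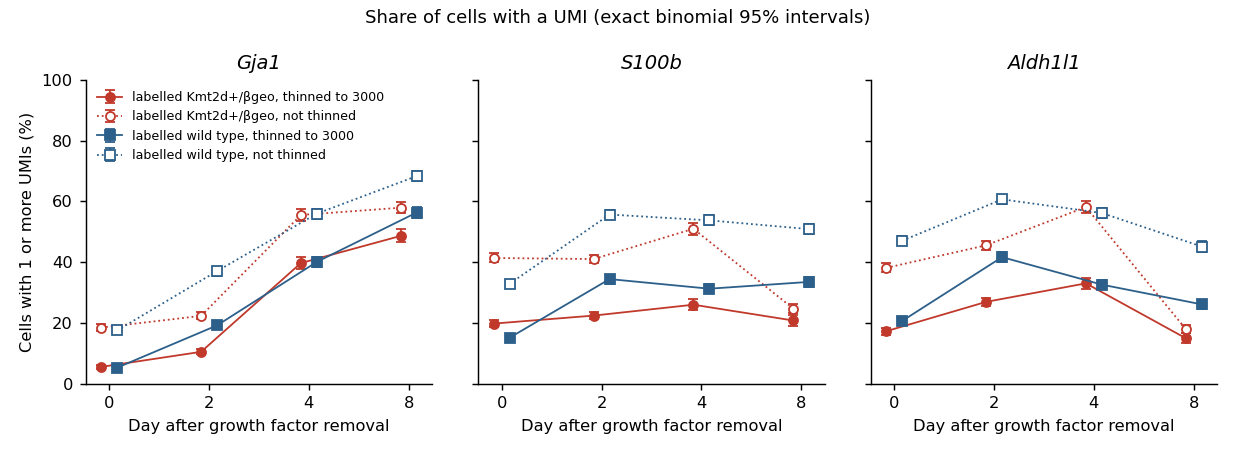
Share of cells with 1 or more UMIs of Gja1, S100b and Aldh1l1 (percent, axis from 0 to 100) by day, after thinning to 3000 UMIs (filled, solid lines) and without thinning (open, dotted lines), with exact binomial intervals. At day 8 the open symbols of S100b and Aldh1l1 lie 26.1 and 27.1 points apart between the labels, and the filled ones 12.7 and 11.1 points.

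Free RNA can give UMIs in cells that do not express a gene. Cells with 2 or more UMIs of Rbfox3, a gene of neuronal nuclei, served as the nearest stand-in for cells that should lack the members. There were 76 and 78 of them on day 4 (Kmt2d+/βgeo, then wild type), with median depths of 8610 and 7508 UMIs against 8923 and 8000 in the remaining cells. At most 18 were found in any other library. Among the day 4 stand-in cells, Gja1 was detected in 32.9% (22.5 to 44.6) and 30.8% (20.8 to 42.2), against 39.9% (38.0 to 41.9) and 40.3% (38.7 to 42.0) in the rest, so its intervals overlapped. S100b was detected in 10.5% (4.66 to 19.7) and 23.1% (14.3 to 34.0) against 26.5% (24.8 to 28.3) and 31.5% (29.9 to 33.0). Aldh1l1 was detected in 22.4% (13.6 to 33.4) and 19.2% (11.2 to 29.7) against 33.4% (31.5 to 35.3) and 32.9% (31.3 to 34.5). The intervals of the stand-in and the remaining cells were thus apart for S100b in Kmt2d+/βgeo and for Aldh1l1 in wild type, and overlapped in the other 4 cases. Overlap of separate intervals does not show that shares are alike. The odds ratios with any Rbfox3 UMI given further on have intervals that left out 0 in every case but Gja1 in Kmt2d+/βgeo. The stand-in is a weak one, since Map2, another neuronal gene, was found in 69.7% and 69.2% of these cells against 67.6% and 66.9% of the rest, and Apoe in 100% and 97.4% of them. Whether these cells lack the members was not tested.

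Between the labels on the same day, Gja1 differed by a log2 ratio (Kmt2d+/βgeo over wild type) of -0.11 (-0.23 to 0.02) on day 0. It was -1.24 (-1.33 to -1.15) on day 2, 0.061 (0.01 to 0.11) on day 4 and -0.61 (-0.67 to -0.56) on day 8. The S100b ratio was 0.49 (0.43 to 0.56), -0.91 (-0.96 to -0.85), -0.31 (-0.37 to -0.25) and -0.86 (-0.95 to -0.77) on days 0, 2, 4 and 8. The Aldh1l1 ratio was -0.35 (-0.41 to -0.29), -0.73 (-0.77 to -0.68), -0.08 (-0.14 to -0.02) and -0.91 (-1.03 to -0.79). All 3 genes were lower in the libraries labelled Kmt2d+/βgeo on days 2 and 8. At the start S100b was the higher of the labels in Kmt2d+/βgeo and Aldh1l1 the lower, while the Gja1 interval held 0.

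By the count of ratios of at least 1 in size, 0 of 3 members passed on day 0, where 1.68% of genes did. Gja1 was the 1 member that passed on day 2, where 2.9% of genes did. On day 4 it was 0 of 3 with 0% of genes, and on day 8 it was 0 of 3 with 4.4% of genes. A share of 0.551% of genes had a lower ratio than Gja1 on day 2, 1.55% a lower one than S100b and 2.69% a lower one than Aldh1l1. On day 8 these shares were 9.28%, 4.39% and 3.79%. The spread over all genes was wider on day 8, with quartiles of -0.29 and 0.23 against -0.18 and 0.16 on day 2, while both medians were within 0.02 of 0. Between the near-alike day 4 libraries, with quartiles of -0.02 and 0.10, S100b had the lowest place of the 3, with 0.756% of genes below it.

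**Figure D3:**
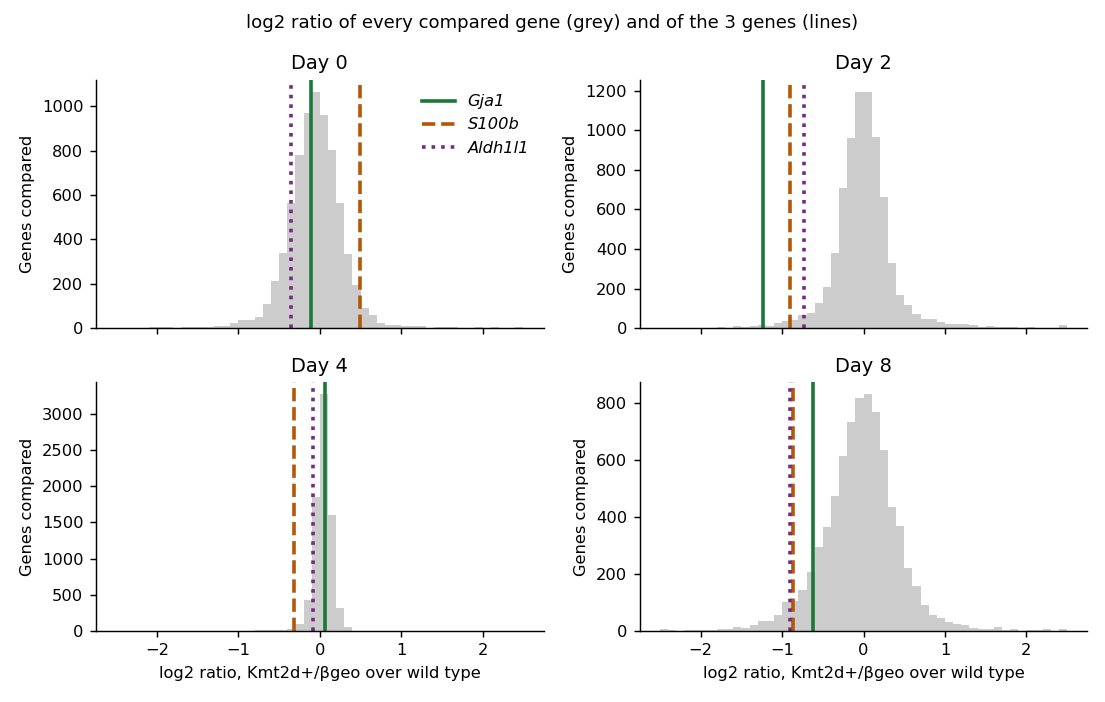
Number of genes by their log2 ratio, Kmt2d+/βgeo over wild type, on each day (grey bars of width 0.1, values beyond 2.5 in the end bars), with lines at Gja1 (solid), S100b (dashed) and Aldh1l1 (dotted). The 3 lines lie left of 0 on days 2 and 8, with 9.28% of genes left of Gja1 on day 8. On day 0 S100b lies on the right at 0.49.

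Detection of 2 members in the same cell was measured in thinned cells by the log2 odds ratio, which is 0 when detection of the genes is independent. On day 0 the 3 pairs gave values between -0.19 and 0.14 in both genotypes, with intervals that held 0 in all 6 cases. On day 2, Gja1 and Aldh1l1 were detected together in 187 cells labelled Kmt2d+/βgeo, where the product of their shares gives 139, and in 408 labelled wild type, where it gives 328. The log2 odds ratios were 0.71 (0.43 to 0.99) and 0.74 (0.51 to 0.97). These place Aldh1l1 at rank 130 of 6190 and rank 120 of 6134 genes detected in 5% to 95% of cells, ordered by their log2 odds ratio with Gja1. Gja1 and S100b on day 2 gave 0.49 (0.19 to 0.80) and 0.41 (0.18 to 0.65).

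Later the pairs differed. Gja1 with S100b gave -0.01 and 0.11 on day 4 and -0.11 and 0.14 on day 8, with intervals that held 0. Gja1 with Aldh1l1 gave 0.19 (-0.06 to 0.44) and 0.62 (0.41 to 0.83) on day 4, and 0.09 (-0.26 to 0.44) and 0.34 (0.11 to 0.58) on day 8. S100b with Aldh1l1 gave -0.07 (-0.29 to 0.15) and 0.33 (0.14 to 0.52) on day 2, and 0.50 (0.23 to 0.77) and 0.55 (0.32 to 0.76) on day 4. On day 8 it gave -0.25 (-0.71 to 0.19) in Kmt2d+/βgeo, from 61 cells with both, and 0.58 (0.34 to 0.82) in wild type, from 338. The day 8 library labelled Kmt2d+/βgeo was thus without a pair whose interval left out 0, while 2 of the 3 pairs did so in wild type, where S100b was at rank 28 of 6359 genes ordered by log2 odds ratio with Aldh1l1. In Kmt2d+/βgeo it was at rank 5083 of 6183. The middle 95% of genes lay between -0.42 and 0.41 in that wild type library and between -0.57 and 0.52 in the Kmt2d+/βgeo one, and the difference between labels was not tested. The pair values changed with depth: thinned to 2000 UMIs, Gja1 with S100b on day 2 in Kmt2d+/βgeo was 0.14, Gja1 with Aldh1l1 was 0.42 there and 0.022 on day 8 in wild type, and without thinning S100b with Aldh1l1 on day 8 in Kmt2d+/βgeo was 0.084.

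**Figure D4:**
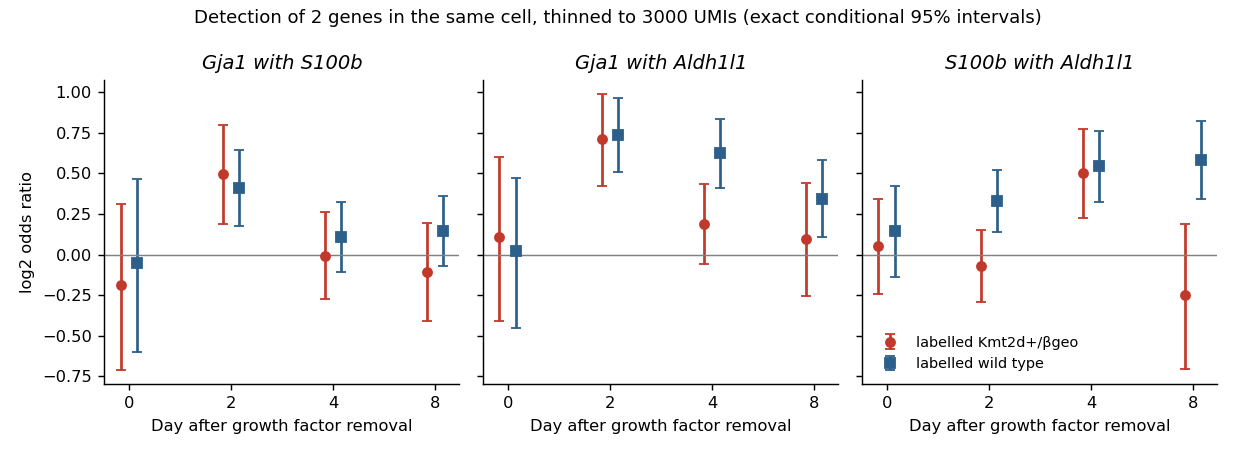
log2 odds ratio of detecting both genes of a pair in a cell thinned to 3000 UMIs, by day and label, each point 1 library with its exact conditional interval and a line at 0. Gja1 with Aldh1l1 is highest on day 2, at 0.71 and 0.74, and S100b with Aldh1l1 on day 8 stands at -0.25 in Kmt2d+/βgeo and 0.58 in wild type.

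Counted per cell, 62.7% of thinned Kmt2d+/βgeo cells and 63.9% of wild type cells had none of the 3 genes on day 0. On day 8 these shares were 34.3% and 23.5%. Cells with all 3 made up 0.162% and 0.185% on day 0, against 0.191% and 0.167% from the product of the shares. On day 8 they made up 1.32% (0.885 to 1.89) in Kmt2d+/βgeo against 1.52% from the product, and 6.30% (5.48 to 7.19) in wild type against 4.93%. On day 2 they made up 0.898% (0.653 to 1.20) against 0.635% in Kmt2d+/βgeo and 4.20% (3.60 to 4.86) against 2.75% in wild type. On day 4 they made up 4.14% (3.40 to 4.99) against 3.41% and 5.81% (5.06 to 6.64) against 4.09%. The interval thus lay above the product on days 2, 4 and 8 in wild type and on day 2 alone in Kmt2d+/βgeo. The lower bounds in Kmt2d+/βgeo were close to the product, at 0.653 against 0.635 on day 2 and 3.40 against 3.41 on day 4. The product comes from the same cells, and its own error is not in the interval. The difference between labels was not tested.

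The cells in which the members were found also differed in other genes. Slc1a3, the glial glutamate transporter GLAST, was detected in 89.2% or more of thinned cells in each of the 8 libraries, and on day 2 Gja1 was rare outside them. On day 2, Gja1 was found in 11.3% of Kmt2d+/βgeo cells with Slc1a3 and 1.96% of those without it, and in 20.3% and 1.64% in wild type. The log2 odds ratios were 2.67 (1.66 to 3.90) and 3.93 (2.55 to 5.83). For Aldh1l1 and Slc1a3 they were 1.24 (0.82 to 1.68) and 2.05 (1.54 to 2.60) on day 2, and 3.38 (2.36 to 4.62) and 2.42 (1.77 to 3.13) on day 4. For S100b and Slc1a3 they were lower on day 4, at 1.01 (0.37 to 1.70) and 0.70 (0.25 to 1.18). On day 0, with 0.5 added to each count, S100b and Slc1a3 gave 0.50 in Kmt2d+/βgeo and -0.43 in wild type. In the day 8 library labelled Kmt2d+/βgeo the Aldh1l1 value was -0.09 (-0.66 to 0.50), against 1.35 (0.66 to 2.11) in wild type.

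Slc1a2, the glutamate transporter GLT-1, went with Gja1 most on day 2, at 1.51 (1.23 to 1.79) and 1.51 (1.26 to 1.77), and less on day 8, at 0.09 (-0.16 to 0.34) and 0.20 (-0.01 to 0.42). S100b went with Slc1a2 in every library, from 0.94 and 0.84 on day 2 to 0.42 (0.11 to 0.73) and 0.64 (0.42 to 0.87) on day 8. Sox9, a glial transcription factor, went with Gja1 at 0.79 and 0.94 on day 2 and 0.68 and 0.67 on day 4. Hopx, a homeobox gene of quiescent neural stem cells and astrocytes, gave 1.06 and 1.13 with Gja1 and 0.95 and 0.80 with Aldh1l1 on day 2, but 0.05 (-0.17 to 0.27) and 0.19 (-0.01 to 0.40) with S100b.

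Olig2, a transcription factor of the oligodendrocyte lineage, was found less often in cells with Gja1 or Aldh1l1. On day 4, Gja1 was detected in 28.0% of Kmt2d+/βgeo cells with Olig2 and 44.5% of those without, and in 29.8% and 44.5% in wild type. The log2 odds ratios were -1.05 (-1.32 to -0.78) and -0.92 (-1.14 to -0.69). For Aldh1l1 and Olig2 they were -1.02 (-1.31 to -0.73) and -0.97 (-1.21 to -0.72). For S100b and Olig2 the intervals held 0, at -0.11 (-0.40 to 0.18) and -0.12 (-0.36 to 0.11). S100b was therefore apart from the other members on this measure on day 4, and these intervals do not overlap. On day 2, S100b too was found less often with Olig2, at -0.32 (-0.52 to -0.12) and -0.49 (-0.68 to -0.29), against -0.90 and -1.25 for Gja1 and -0.94 and -0.82 for Aldh1l1.

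On day 0, S100b stood apart in another way. With Top2a it gave -0.71 (-0.96 to -0.47) and -0.75 (-1.01 to -0.48), and Top2a was found in 28.6% and 25.2% of cells with S100b against 39.7% and 36.1% of those without. Gja1 with Top2a gave 0.19 (-0.21 to 0.58) and 0.23 (-0.16 to 0.61), and Aldh1l1 gave -0.12 (-0.37 to 0.12) and -0.07 (-0.29 to 0.15). With Apoe, the lipid carrier made by astrocytes, S100b gave 1.28 (0.97 to 1.60) and 0.80 (0.54 to 1.06) on day 0. With 0.5 added to each count, Aldh1l1 gave 0.56 and 0.44 with Apoe, and Gja1 gave -0.05 and 0.37. In the proliferating cultures S100b was thus found less in cells with a marker of division, in both genotypes. It was also found more in cells with Apoe, as was Aldh1l1, so that trait was not particular to S100b. From day 2 on, Apoe was found in nearly all cells, at 99.8% and 99.7% of day 2 cells with or without S100b in wild type, so its odds ratios have wide intervals.

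**Figure D5:**
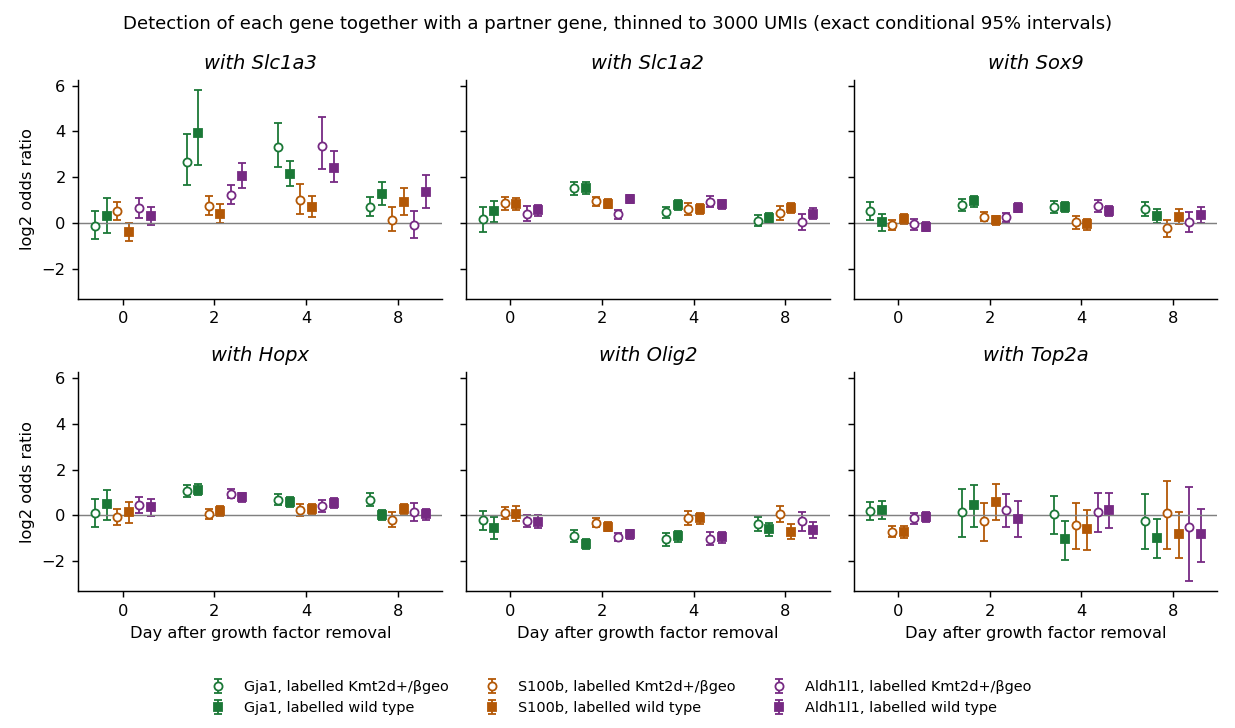
log2 odds ratio of detecting Gja1 (green), S100b (orange) or Aldh1l1 (purple) with each of 6 partner genes in cells thinned to 3000 UMIs, by day, open circles for libraries labelled Kmt2d+/βgeo and filled squares for wild type, with exact conditional intervals and a line at 0. On day 4, Gja1 and Aldh1l1 lie above 2 with Slc1a3 and near -1 with Olig2, while S100b lies nearer 0 with both.

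Of the other partner genes, Map2, a neuronal microtubule gene, had log2 odds ratios between -0.44 and 0.32 with the 3 members over the 8 libraries. Pax6, a progenitor transcription factor, had values between -0.34 and 0.49. Rbfox3 was found in few cells, and on day 4 it gave -1.11 (-1.80 to -0.47) and -0.77 (-1.31 to -0.25) with Aldh1l1. With S100b it gave -0.91 (-1.65 to -0.22) and -0.54 (-1.07 to -0.03), and with Gja1 -0.05 (-0.59 to 0.48) and -0.63 (-1.12 to -0.16). Fabp7 gave 0.57 (0.04 to 1.12) and 0.92 (0.43 to 1.44) with Aldh1l1 on day 4. Vim was detected in nearly every cell, which leaves its odds ratios without use.

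When all genes detected in 5% to 95% of cells were ordered by their log2 odds ratio with a member, here with 0.5 added to each count, the ends of the order were much alike for Gja1 and Aldh1l1 on day 4. Slc1a3 and Sparcl1, a matricellular glycoprotein gene of astrocytes, were among the 5 highest for both in both libraries, with Gja1 and Sparcl1 at 3.16 and 2.69. Lhfpl3 and Megf11 were among the 5 lowest for both in both libraries, and Gja1 with Lhfpl3 stood at -2.52 and -2.08. Lhfpl3, a gene of the oligodendrocyte lineage list, was also the lowest for all 3 members in the day 8 wild type library, at -1.65 with Gja1, -1.38 with S100b and -1.19 with Aldh1l1. In that library Mgst1, a microsomal glutathione transferase gene, was the highest for all 3, at 1.62, 1.72 and 1.37. In the day 8 library labelled Kmt2d+/βgeo the highest genes were Igfbp5 for Gja1, Ppfibp2 for S100b and Rpap3 for Aldh1l1. These genes were named after their values were seen.

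Among other astrocyte genes, 20 of 30 listed were analysed, and Gfap, Aqp4 and Aldoc are among those not analysed here. Without the members, 9 of 17 were higher and 2 lower on day 8 than day 0 in Kmt2d+/βgeo, with a median log2 ratio of 1.47, where 19.6% of all genes were higher, 14% lower and the median was 0.10. In wild type 10 of 17 were higher and 2 lower, with a median of 1.22, where 16.8% of genes were higher, 11.5% lower and the median was 0.05. The astrocyte genes past 1 on day 8 over day 0 in both genotypes included Apoe (3.13 and 5.53), the metallothionein gene Mt2 (4.11 and 4.46) and Hopx (3.91 and 3.06). Glul, the glutamine synthetase gene, had levels of 1.41, 3.88, 6.17 and 0.520 in Kmt2d+/βgeo and 1.83, 9.20, 5.98 and 1.76 in wild type. Its levels were therefore highest on days 2 and 4, as were those of Aldh1l1.

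On day 8 the astrocyte genes past a genotype ratio of 1 in size were Apoe at -1.15, Glul at -1.76, Sparcl1 at -1.32 and Hopx at 1.81, where 4.4% of all genes were. The median of the 17 genes on that day was -0.10, with 10 below 0, where 52.0% of all genes were below 0. On day 2, 15 of the 17 were below 0, with a median of -0.42, and 2 of them passed, where 50.8% of all genes were below 0 and 2.9% passed. Before that, on day 0, 13 of the 17 were below 0, with a median of -0.27, where 57.7% of all genes were. The day 4 libraries had 15 of the 17 above 0, with a median of 0.07, where 68.2% of all genes were. The summed level of the 17 genes was 79.4 and 87.9 on day 0 (Kmt2d+/βgeo, then wild type), 491 and 514 on day 2, 576 and 565 on day 4, and 312 and 513 on day 8. A sum is weighted toward the genes of highest level, so it need not follow the median gene. The summed level of the oligodendrocyte lineage list, 6 of 17 genes, was 19.7 and 25.3, 23.4 and 33.7, 24.5 and 25.1, and 11.5 and 14.6 on the same days. That of the dividing cell list, 5 of 13 genes, was 13.9 and 12.6 on day 0 and between 1.68 and 2.08 afterwards, and that of the neuron list, 6 of 16 genes, lay between 3.49 and 5.18. Of the 10 ependymal and the 12 meningeal and endothelial genes listed, 0 were analysed. Top2a, Smc2, Mcm6 and Smc4, genes of replication and chromosome condensation, were lower on day 8 than day 0, at -5.82 to -2.15 in Kmt2d+/βgeo and -5.10 to -1.87 in wild type. Of the 6 oligodendrocyte lineage genes, 0 were higher and 2 lower in Kmt2d+/βgeo, with a median of -0.57, and 1 was higher and 2 lower in wild type, with a median of -0.24, where 19.6% and 14% of all genes were higher and lower in Kmt2d+/βgeo and 16.8% and 11.5% in wild type. The lower ones in both were Olig2 (-1.99 and -3.28) and Bcas1 (-2.21 and -2.88). Of the neuron genes, 1 of 3 compared was higher and 0 lower on day 8 than day 0 in each genotype. The medians were 0.42 and 0.23, where 19.6% and 16.8% of all genes were higher. The higher ones were Rbfox3 in Kmt2d+/βgeo (4.29) and Nrxn3, a synaptic neurexin gene, in wild type (3.51). In the other genotype each was under a level of 0.1 on both days. Their genotype ratios on day 8 were 1.16 and -2.13. In the day 8 Kmt2d+/βgeo library 8 cells had 2 or more Rbfox3 UMIs. The genotype ratio of Bcas1, a gene of newly forming oligodendrocytes, was 1.68 on day 8. The part of these cell types in the members' levels was not tested.

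Among gap junction genes, 8 of 17 were analysed. Gjc1, which encodes connexin 45, had levels of 0.313, 0.162, 0.0395 and 0.156 in Kmt2d+/βgeo and 0.194, 0.0633, 0.0352 and 0.0382 in wild type, so that it was lower on later days while Gja1 was higher. Its genotype ratio on day 8 was 2.02. Panx1, a pannexin channel gene, was lower on day 8 than day 0 (-1.18 and -1.84), and Cav1, a caveolin gene whose product binds connexin 43, was higher (1.32 and 1.31). Without Gja1, 1 of the 7 was higher and 2 were lower in Kmt2d+/βgeo, and 2 were higher and 2 lower in wild type, with medians of 0.11 and 0.43. Of all genes, 19.6% were higher and 14% lower in Kmt2d+/βgeo and 16.8% and 11.5% in wild type, which is near the counts of so short a list.

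Among S100 genes, 5 of 15 were analysed. S100a11, S100a13 and S100a10, genes of other calcium-binding S100 proteins, were higher on day 8 than day 0 in both genotypes, at 2.31 and 3.07, 1.99 and 2.20, and 1.35 and 1.42. They are 3 of the 4 genes besides S100b, where 19.6% and 16.8% of all genes were higher, and the 4 had medians of 1.67 and 1.81. These genes were thus past 1 in Kmt2d+/βgeo as well, where S100b was at 0.35.

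Among folate one-carbon genes, 19 of 28 were analysed, and 15 besides Aldh1l1 had a level of at least 0.1 on day 0 or 8 in Kmt2d+/βgeo and 14 in wild type. Of these, 1 was higher and 6 lower on day 8 than day 0 in Kmt2d+/βgeo, with a median log2 ratio of -0.25, and 2 were higher and 3 lower in wild type, with a median of 0.25. The shares of all genes were 19.6% higher and 14% lower in Kmt2d+/βgeo, and 16.8% and 11.5% in wild type. Tyms, the thymidylate synthase gene (-4.32 and -2.75), and the mitochondrial Mthfd2 (-2.89 and -2.57) were lower. Mthfs, which returns 5-formyltetrahydrofolate to the pool, was higher (1.66 and 1.10). Mthfd1, the cytosolic enzyme that makes the substrate of ALDH1L1, had levels of 0.557, 0.447, 1.14 and 0.377 in Kmt2d+/βgeo and 0.453, 0.483, 1.05 and 0.945 in wild type. Its genotype ratio on day 8 was -1.32, below the -0.91 of Aldh1l1.

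The genes whose levels over the 8 libraries were most like each member's were found by Pearson's correlation of log2(level + 0.1) over 8263 genes. The 8 points share 4 days and differ in depth, so the values are descriptions. For Gja1 they were 2810459M11Rik, Fbrsl1, Tab2, Plekhb2 and Wdfy2 (0.994 to 0.991). For S100b they were C230037L18Rik, Cfap100, Fgfr2, Nat8f1 and 3110021N24Rik (0.939 to 0.924). For Aldh1l1 they were Tnfrsf19, Glul, Enpp2, Cyp2j9 and Zkscan3 (0.989 to 0.969). Tnfrsf19 had levels of 0.213, 0.524, 0.735 and 0.206 in Kmt2d+/βgeo and 0.327, 0.858, 0.680 and 0.424 in wild type, the same order of days as Aldh1l1 within each genotype. The members were not among each other's nearest genes, since Gja1 correlated at 0.745 with S100b and at 0.242 with Aldh1l1, and S100b at 0.665 with Aldh1l1. Without both day 4 libraries, 2, 3 and 1 of the 5 genes stayed among the 5 nearest of Gja1, S100b and Aldh1l1.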

How the data were processed

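Alevin (Salmon 1.3.0), Seurat 3.2.2 and the build GRCm38 are named in the submitters' processing notes, and the sources used here give no strand setting. The authors deposited, for 9140 genes in 30408 cells, log2 values of a normalised count plus 1, in which every cell sums to the same total, and total UMI counts per cell. Estimated counts were recovered from the deposited log2 values by dividing by the commonest value in a cell, taken as 1 UMI: 86.8% of nonzero values came within 0.01 of a whole number, and 4.69% rounded to 0. Expected counts behind the deposited values may be fractions, since Alevin shares out ambiguous reads. GENCODE M21 holds the identifiers of 9137 of the 9140 genes, with coordinates equal to the deposited ones for 9062.

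Median UMIs per cell on these genes were 3972 to 11230. Levels are pooled UMIs per 10000 with exact Poisson intervals, ratios have exact conditional intervals, shares have exact binomial (Clopper-Pearson) intervals, gaps between shares have Newcombe intervals, and odds ratios are conditional with exact intervals. A ratio was counted at 1 or more in size on the log2 scale where a level was at least 0.1. With 1 library per genotype and day no test was made. Cells were used as deposited, and no doublet caller was run here. The study's methods, which analyse day 0 alone, describe removing hippocampal cells with outlying doublet scores.

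Named genes are the members, 5 genes most like each by level, the 12 co-detection partners and, from each list (astrocyte, gap junction, S100, folate, oligodendrocyte, neuron, dividing, ependymal, meningeal and endothelial), up to 4 genes past 1 in both genotypes or past 1 between labels on day 8. Some genes that this rule names are not reported here. Others are said to be named after their values were seen. The members and lists were chosen with earlier results of these data known. Alternatives were other denominators, thinning depths, filters and libraries left out. The recovery and ratio steps were run on simulated whole counts, which do not test the recovery of fractional ones. Python 3.11.15, numpy 2.4.6, scipy 1.17.1, pandas 2.3.3 and matplotlib 3.10.9 were used.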

Additional observations from a re-analysis of the deposited data

Results flagged for a closer look

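Some log2 ratios pointed opposite ways under the same contrast, with counting intervals that left out 0. None of these differences was tested, since each rests on 1 library per genotype and day. The Gja1 ratio of Kmt2d+/βgeo over wild type was -1.24 on day 2, 0.061 on day 4 and -0.61 on day 8. For S100b that ratio was 0.49 on day 0 and -0.91, -0.31 and -0.86 on days 2, 4 and 8. The day 4 values come from the nearly alike libraries, and whether either label is wrong was not tested.

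Between genotypes, Gja1 on day 8 over day 4 was -0.10 in Kmt2d+/βgeo and 0.57 in wild type. The Kmt2d+/βgeo direction turned with the measure, since it was 0.095 as a difference of mean log2 values and 0.093 with total UMIs as denominator, and its thinned share of cells was higher on day 8. S100b on day 4 over day 2 was 0.37 and -0.23, and on day 8 over day 4 it was -0.37 and 0.18. Aldh1l1 on day 4 over day 2 was 0.22 and -0.43. Each of these uses a day 4 library. Aldh1l1 on day 8 over day 0 was -0.25 and 0.31, without a day 4 library.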

How the results depend on the processing

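Among the members' log2 ratios whose interval left out 0, 2 changed direction. Gja1 on day 8 over day 4 in Kmt2d+/βgeo was 0.095 as a difference of mean log2 values and 0.093 with total UMIs as denominator, in alternatives for the steps between later days that were chosen after seeing the data. S100b on day 8 over day 0 in Kmt2d+/βgeo was -0.052 as a difference of mean log2 values, 0.17 thinned to 3000 UMIs and 0.20 as a ratio of mean normalised counts. Ratios whose interval held 0 also changed sign: Gja1 between labels on day 0 was 0.0013 as a difference of mean log2 values and 0.0070 thinned to 3000, and S100b on day 8 over day 2 changed sign in both genotypes, reaching -0.11 in Kmt2d+/βgeo and 0.11 in wild type. The difference of mean log2 values, which is smaller for sparse genes, gave genotype values for Gja1 of -0.29, 0.011 and -0.36 on days 2, 4 and 8, for S100b of 0.13, -0.37, -0.12 and -0.44 on days 0, 2, 4 and 8 and for Aldh1l1 of -0.14, -0.39, -0.013 and -0.37. On day 8 over day 0 it gave 1.13 and 1.49 for Gja1 (Kmt2d+/βgeo, wild type), and 0.52 for S100b and 0.075 for Aldh1l1 in wild type. With total UMIs as denominator, genotype values were 0.57 and -0.82 for S100b on days 0 and 2, -0.27 and -0.64 for Aldh1l1 and 0.011 for Gja1 on day 4, and wild type day 8 over day 0 was 1.79 for S100b and 0.40 for Aldh1l1. Thinning to 3000 gave genotype values of -0.27 for Aldh1l1 on day 0, -1.13 for Gja1 on day 2 and -0.38 for S100b on day 4, and 1.51 for S100b on day 8 over day 0 in wild type. Without the 5% of cells with most UMIs, Aldh1l1 on day 2 was -0.67. For wild type day 8 over day 0, mean normalised counts gave 1.49 for S100b and 0.23 for Aldh1l1, and leaving out the 10 genes with most UMIs gave 4.40, 1.80 and 0.40 for Gja1, S100b and Aldh1l1. The cause of these shifts was not tested. With a minimum level of 0.5, the genes past 1 between labels were 35, 89, 0 and 171 on days 0, 2, 4 and 8, against 123, 221, 0 and 343, and on day 0 they were 210 with a UMI in both libraries. All 24 shares moved beyond their intervals under each other depth, and 17 of 24 pair odds ratios stayed within theirs at 2000 UMIs and 15 of 24 without thinning. Depth limits the day 8 library labelled Kmt2d+/βgeo most.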
